A study of Mus musculus with 5 samples.

Results

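The 9985 barcodes of a mouse embryonic stem cell library grown in 200 mM sorbitol were compared with the 10000 barcodes of an unstressed library of the same line. The members are all barcodes of either library with at least 500 genes detected. They were 9985 of the 10000 barcodes listed for 200 mM sorbitol (15 fell short), all 10000 of the unstressed library, and together part of 49074 such barcodes in the 5 libraries of the series. The cells were REX-1 RFP, a line with a red fluorescent protein under the Rex1 promoter (Rex1, gene symbol Zfp42, marks naive pluripotency). All cultures started with LIF (leukaemia inhibitory factor), a cytokine that holds back differentiation, and were then kept for 72 h in their own condition. The sorbitol library, called S200 here, had LIF and 200 mM sorbitol. S250 and S300 had LIF and 250 or 300 mM sorbitol, and ND had no LIF. The unstressed library, NS, had LIF and no sorbitol by its labels, which do not spell out the name. Each condition is 1 library of 1 line, so ratios compare these libraries, batch and condition cannot be told apart, and no p-value is given.

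Sorbitol in the medium raises its osmolarity, water leaves the cells, and ions inside become concentrated. Mammalian cells restore their balance in part by exporting sodium through the sodium pump. Over hours they replace salt with compatible osmolytes: sorbitol made by aldose reductase, and myo-inositol, taurine and betaine taken up by sodium-coupled transporters, much of it under the transcription factor NFAT5.

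The libraries differed in depth. Barcodes of S200 held 812 to 2381 unique molecular identifiers (UMIs, median 887) and those of NS 1897 to 6032 (median 2135), which made 9218297 UMIs in S200 and 22158653 in NS. A count of 3 UMIs, the floor used for unseen genes, amounts to 0.325 CPM (a gene's UMIs scaled to the library's total) in S200 and 0.135 CPM in NS. Mitochondrially encoded genes took 5.61% of UMIs in S200 and 3.98% in NS, and cytosolic ribosomal protein genes 25.2% in S200 and 28.4% in NS. The nuclear RNA Malat1 stood at 22948 CPM in S200 and 14103 CPM in NS. S200 shared 38 to 51 of its listed barcode sequences with each other library, 49 of them with NS. All 10 embryonic stem cell markers stood at 5 CPM or more in both libraries, with a summed level of 8318 CPM in S200 and 7247 CPM in NS. Of the defining markers of other cells, trophoblast genes summed to 181 CPM in S200 and 100.2 CPM in NS, neuroectoderm genes to 49.2 CPM in S200 and 63.5 in NS, feeder fibroblast genes summed to 9.44 CPM in S200 and 4.11 CPM in NS with 3 of 8 at 0 in each, primitive endoderm genes to 15.9 CPM in S200 and 14.7 in NS, mesoderm genes to 3.69 CPM in S200 and 2.80 in NS, and definitive endoderm genes to 2.28 CPM in S200 and 3.52 in NS. No feature stood for the fluorescent reporter. Zfp42, whose promoter drives it, stood at 521 CPM in S200 and 562 CPM in NS (log2 ratio -0.11, -0.16 to -0.06, here and below with the 95% interval for counting error only).

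Of 10222 measured genes, those with a mean of at least 5 CPM over the 5 libraries, 2593 (25.4%) were at least 1.5-fold higher in S200 and 1055 (10.3%) at least 1.5-fold lower. At 2-fold the counts were 1013 (9.91%) and 296 (2.9%), and at 4-fold 79 (0.773%) and 18 (0.176%). The median gene had a log2 ratio of 0.19, so a group has to be read against that value and not against 0. Median-of-ratios scaling lowers every log2 ratio by 0.27, gives 1479 genes (14.5%) past 1.5-fold higher and 2065 (20.2%) past 1.5-fold lower, and gives 535 (5.23%) and 663 (6.49%) past 2-fold. The share of higher genes among those past 2-fold is then 44.7%, against 77.4% with CPM. A log2 ratio between 0 and 0.27 therefore changes sign with the scaling. The direction given for a gene holds under both scalings unless it is said not to. The counts of each list under median-of-ratios scaling follow its CPM counts, as rescaled counts of higher and lower genes. Each list's counts are to be read against the shares of all measured genes given here for the same scaling.

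Longer transcripts had higher ratios. Over 4 equal classes of transcript length, split at 2191, 3406 and 4883 bases, the median log2 ratio was -0.13, 0.16, 0.27 and 0.41 from the shortest to the longest, and 13.6%, 22.0%, 29.2% and 36.7% of genes were at least 1.5-fold higher. The shares at least 1.5-fold lower were 19.6%, 10.4%, 6.65% and 4.58%. Over 4 equal classes of mean level, from low to high, the median was 0.32, 0.29, 0.18 and 0.01. For some of the lists of short or abundant transcripts the median relative to genes of like length and level is given as well. The 375 measured genes of the X chromosome had a median of 0.23 and the 9829 autosomal genes 0.19.

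**Figure D1:**
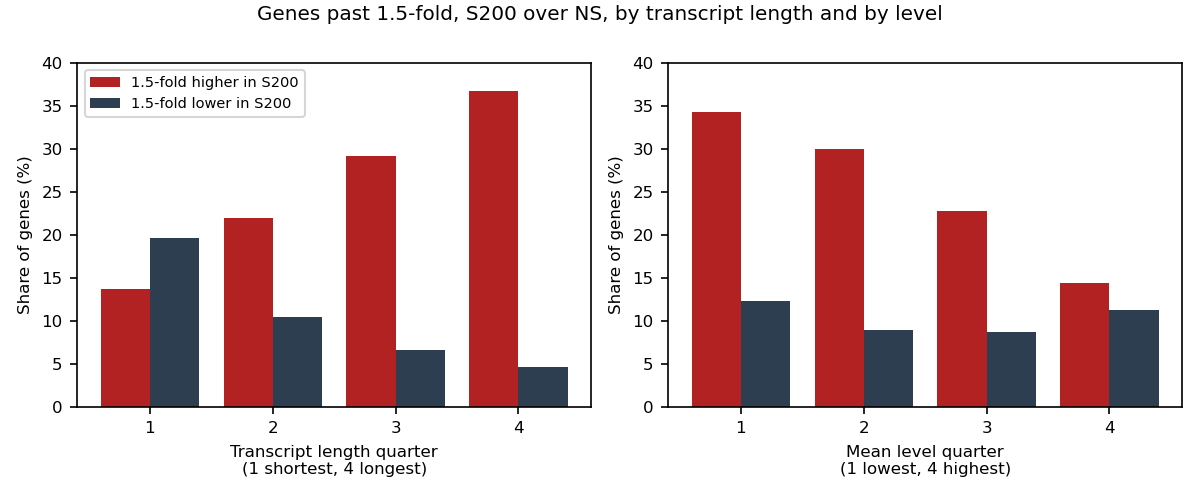
Share of measured genes at least 1.5-fold higher or lower in S200 than in NS (vertical axis, %), by class of transcript length (left) and of mean level (right). The share higher climbs to 36.7% among the longest transcripts and the share lower falls from 19.6% to 4.58% over the same classes.

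Among lists with at least 8 measured genes, that of the osmotic response had the highest median. Of 15 measured members of the hyperosmotic list (20 listed), 13 were at least 1.5-fold higher in S200 and 1 lower, with a median log2 ratio of 1.23 against 0.19 for all measured genes, and 11 and 1 under median-of-ratios scaling. Fxyd2, the gamma subunit of the sodium pump (ENSMUSG00000059412; chromosome 9, 45399669 to 45410278, plus strand, mm10 here and below), stood at 178 CPM in S200 and 28.8 CPM in NS, 6.18-fold higher (2.63, 2.50 to 2.76). Slc5a3, the sodium-coupled myo-inositol transporter (ENSMUSG00000089774; chromosome 16, 92058322 to 92087473, plus strand), stood at 31.5 CPM in S200 and 5.78 CPM in NS, 5.45-fold higher (2.45, 2.14 to 2.76). It overlaps Mrps6 on the same strand, so reads of the pair are uncertain. Akr1b3, mouse aldose reductase, which turns glucose into sorbitol, stood at 280.3 CPM in S200 and 92.1 CPM in NS (1.61, 1.52 to 1.69). The taurine transporter gene Slc6a6 was 2.72-fold higher (148 CPM in S200 against 54.2 in NS), and the betaine transporter gene Slc6a12, too low to be measured by the rule, stood at 3.69 CPM in S200 and 0.271 CPM in NS with 6 UMIs in NS (3.77, 2.50 to 5.31).

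Nfat5 itself stood at 64.00 CPM in S200 and 29.9 CPM in NS (1.10, 0.93 to 1.26). Sgk1, a kinase that raises ion transport and responds to cell shrinkage, was 4.64-fold higher (117 CPM in S200 against 25.3 in NS), and Hspa1b, an inducible chaperone gene, stood at 11.8 CPM in S200 and 3.47 CPM in NS (1.77, 1.33 to 2.21). The members that did not share the direction were Slc38a2, a neutral amino acid transporter, at 452 CPM in S200 and 488 CPM in NS (-0.11, -0.16 to -0.06), and Gadd45b, a stress-inducible gene, at 18.4 CPM in S200 and 36.9 CPM in NS (-1.001, -1.25 to -0.76). Against genes of like length and level the list's median stood 0.90 higher on the log2 scale. Its members were at about the same level at the higher doses, with median log2 ratios of S200 over S250 of -0.04 and of S200 over S300 of -0.10.

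The beta subunits of the sodium pump were higher. Their genes Atp1b1, Atp1b2 and Atp1b3 stood at 189, 35.8 and 165 CPM in S200 against 72.6, 7.76 and 83.4 CPM in NS. Fxyd6, another regulator of the pump, was on the other side, at 88.5 CPM in S200 and 154 CPM in NS (-0.80, -0.92 to -0.69). Of 20 measured genes of the sodium pump and ion balance list, 11 were at least 1.5-fold higher and 3 lower, median 0.66 (rescaled, 9 and 4). Among the cotransporters, Slc12a2, which carries sodium, potassium and chloride inward, stood at 49.2 CPM in S200 and 21.03 CPM in NS, and Slc12a7, a potassium and chloride exporter, at 81.5 CPM in S200 and 38.7 CPM in NS. Wnk1, the kinase upstream of them, stood at 391.8 CPM in S200 and 199 CPM in NS (0.98, 0.92 to 1.04). Clic1, a chloride intracellular channel protein, had the lowest ratio of the list, 40.2 CPM in S200 against 98.7 in NS (-1.29, -1.46 to -1.14).

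Several enzymes of sugar alcohols were higher too. Of 8 measured genes of the polyol list, 5 were at least 1.5-fold higher and 0 lower (median 0.85; 4 and 0 under median-of-ratios scaling). Akr1b8, an aldose reductase-like enzyme, stood at 17.1 CPM in S200 and 4.51 CPM in NS, Isyna1, which makes myo-inositol phosphate from glucose phosphate, at 55.2 CPM in S200 and 27.3 CPM in NS, and Khk, fructokinase, at 8.90 CPM in S200 and 4.42 CPM in NS. Sord, which oxidises sorbitol to fructose, stood at 46.2 CPM in S200 and 28.5 CPM in NS (0.70, 0.52 to 0.88). The inositol monophosphatases were closer to the median gene, with Impa1 at 80.7 CPM in S200 against 55.6 in NS and Impa2 at 80.9 CPM in S200 against 82.2 in NS.

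**Figure D2:**
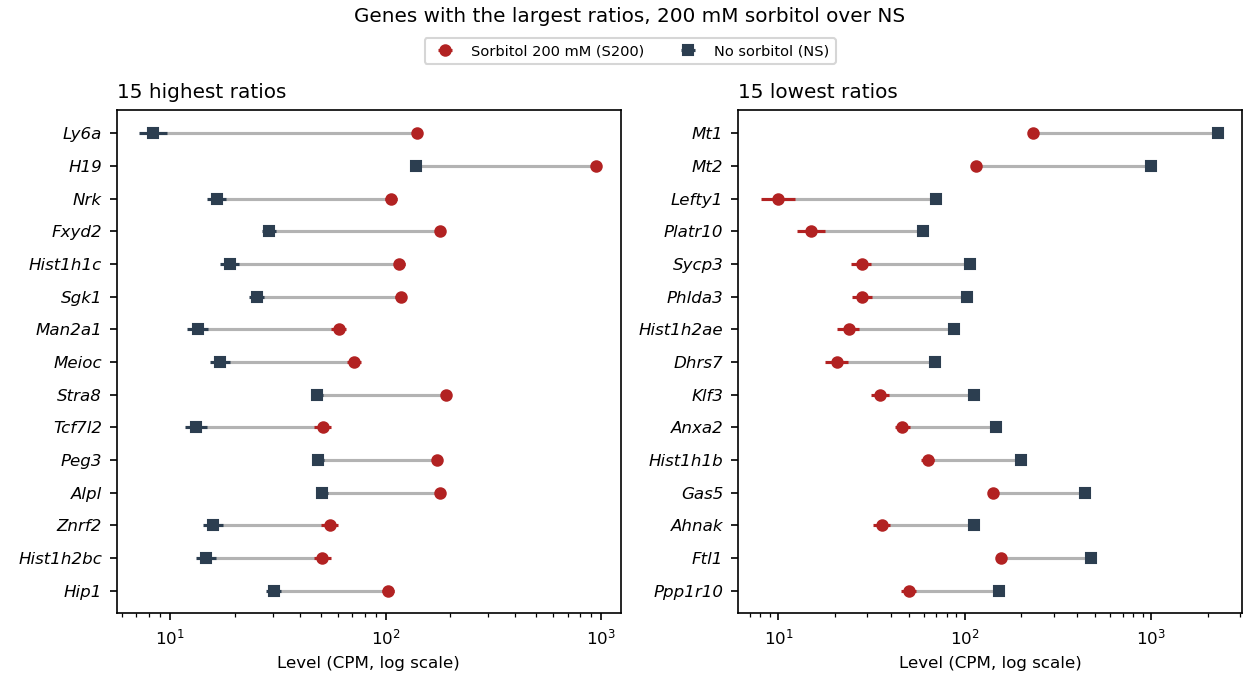
Levels (CPM, log axis) in S200 (circles) and NS (squares) of the 15 highest and the 15 lowest ratios, for genes that reach 50 CPM in S200 or NS. Bars are 95% Poisson intervals of the counts, mostly smaller than the symbols. Ly6a and Mt1 have the widest gaps.

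Outside the osmotic list the highest ratio of any gene reaching 50 CPM was that of Ly6a (ENSMUSG00000075602; chromosome 15, 74994877 to 74998031, minus strand), a surface antigen held by a lipid anchor and known as Sca-1. It stood at 139.5 CPM in S200 and 8.39 CPM in NS, 16.6-fold higher (4.05, 3.83 to 4.28). Ly6e, the one other measured gene within 150 kb, stood at 83.3 CPM in S200 and 54.6 CPM in NS (0.61, 0.48 to 0.74). Alpl, tissue non-specific alkaline phosphatase, another lipid-anchored surface protein and a stain of pluripotent cells, was 3.5-fold higher (178 CPM in S200 against 50.9 in NS). Of 11 measured genes of the list of Ly6 and lipid-anchored surface antigens, 5 were at least 1.5-fold higher and 2 lower (rescaled, 4 and 2), with a median of 0.25 that turns to -0.02 under median-of-ratios scaling. Relative to genes of like length and level it stood at 0.42. The 2 lower were Bst2 (12.7 CPM in S200 against 24.7 in NS) and Cd59a (16.5 CPM in S200 against 30.1 in NS).

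The imprinted RNA H19 stood at 943 CPM in S200 and 139 CPM in NS (ENSMUSG00000000031; chromosome 7, 142575529 to 142578143, minus strand; 2.76, 2.70 to 2.82). Within 150 kb lay 3 other measured genes. Igf2, the imprinted growth factor gene that shares enhancers with H19, stood at 11.3 CPM in S200 and 1.22 CPM in NS (9.26-fold higher, with 27 UMIs in NS), and Tnnt3, a fast muscle troponin gene, at 13.7 CPM in S200 and 1.85 CPM in NS. Mrpl23, a mitochondrial ribosomal protein gene between Tnnt3 and H19, was on the other side, at 116 CPM in S200 against 148 in NS. This window was chosen after the values were seen. Elsewhere in the genome the paternally expressed Peg3 was 3.56-fold higher (174 CPM in S200 against 48.9 in NS) and Peg10 3.2-fold higher (190.5 CPM in S200 against 59.5 in NS), and the maternally expressed Igf2r, which clears Igf2, 2.96-fold higher (68.8 CPM in S200 against 23.2 in NS). Of 23 measured imprinted genes, 8 were at least 1.5-fold higher and 2 lower, and 6 and 6 rescaled. The median of 0.12 lay below that of all genes and turns to -0.14 under median-of-ratios scaling. The 2 genes lower with CPM were Phlda2, a placental growth repressor, at 7.38 CPM in S200 and 18.9 CPM in NS, and Mcts2 at 15.8 CPM in S200 and 39.3 CPM in NS. Kcnq1ot1 (325 CPM in S200 against 324 in NS) and Gnas (144 CPM in S200 against 137 in NS) lay close to NS.

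The other genes with high ratios came from several groups. Nrk, an X-linked kinase, stood at 106 CPM in S200 and 16.5 CPM in NS, 6.41-fold higher. Man2a1, a Golgi mannosidase that trims N-glycans, stood at 60.6 CPM in S200 and 13.4 CPM in NS, 4.51-fold higher. Hip1, an endocytic adaptor, and Znrf2, a ubiquitin ligase, were 3.39-fold (103 CPM in S200 against 30.2 in NS) and 3.47-fold (55.1 CPM in S200 against 15.9 in NS) higher. Among genes of 10 to 50 CPM, Alox12e, an epidermal lipoxygenase, stood at 13.2 CPM in S200 and 0.496 CPM in NS, the highest ratio of all measured genes (4.74, 3.85 to 5.78, 11 UMIs in NS). S100a4, a calcium-binding protein, stood at 11.4 CPM in S200 and 1.31 CPM in NS, Slc15a2, a peptide transporter, at 20.3 CPM in S200 and 2.62 CPM in NS, Moxd1, a monooxygenase-like protein, at 13.1 CPM in S200 and 1.71 CPM in NS, and Bmf, a pro-apoptotic protein of the Bcl2 family, at 13.7 CPM in S200 and 1.94 CPM in NS.

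The metallothionein genes Mt1 and Mt2 were far below NS. These small cysteine-rich proteins bind zinc and copper, and their transcription is driven by the zinc-sensing factor MTF1 through metal response elements near the start site. The promoters of Mt1 and Mt2 are shown because these genes had the lowest ratios of any gene with at least 50 CPM. They run from 250 bases before to 50 after the start (RefSeq, GRCm38.p6, plus strand, chr8:94178839-94179138 and chr8:94172368-94172667), and capitals mark TGCNCNC, the core of the metal response element, on either strand.
Mt1: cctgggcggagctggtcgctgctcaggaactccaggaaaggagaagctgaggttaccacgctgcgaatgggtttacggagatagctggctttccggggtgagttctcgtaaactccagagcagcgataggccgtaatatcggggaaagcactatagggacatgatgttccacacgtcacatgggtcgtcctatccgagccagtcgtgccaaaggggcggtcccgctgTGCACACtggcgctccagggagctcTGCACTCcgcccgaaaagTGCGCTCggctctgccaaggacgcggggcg
Mt2: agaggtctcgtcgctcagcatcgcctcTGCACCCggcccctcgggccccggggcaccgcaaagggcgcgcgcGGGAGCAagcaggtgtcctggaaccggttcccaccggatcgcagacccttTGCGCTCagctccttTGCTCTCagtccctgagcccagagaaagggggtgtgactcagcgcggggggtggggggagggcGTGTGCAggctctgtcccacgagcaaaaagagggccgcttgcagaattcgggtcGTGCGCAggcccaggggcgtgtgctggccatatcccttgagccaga
The Mt1 window held 3 matches and the Mt2 window 6, counted on both strands. The windows follow 1 annotated start of each gene, and matches near any other start were not counted. Of 8160 measured genes with such a window, 60.6% held at least 1 match and 10.3% held 3 or more, so the motif is common, and a match is a description and not a site. Windows were at hand for 79.9% of measured genes, under the 80% needed, so groups of genes were not compared by motif.

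Mt1 (ENSMUSG00000031765; chromosome 8, 94179082 to 94180327, plus strand) stood at 231 CPM in S200 and 2287 CPM in NS, 9.9-fold lower (-3.31, -3.37 to -3.25). Mt2 (ENSMUSG00000031762; chromosome 8, 94172664 to 94173568, plus strand), its neighbour, stood at 115 CPM in S200 and 994 CPM in NS, 8.62-fold lower (-3.11, -3.20 to -3.02). The same held per barcode: after thinning every barcode to 500 UMIs, Mt1 had a UMI in 10.7% of S200 barcodes against 64.2% of NS barcodes, and in 18.2% of S200 and 96.6% of NS barcodes without thinning. The other genes of the cluster differed. Mt3, the brain form, stood at 4.66 CPM in S200 and 17.6 CPM in NS (-1.92, -2.41 to -1.46; 3 motif matches), and Mt4, the epithelial form, at 13.1 CPM in S200 and 4.69 CPM in NS (1.48, 1.09 to 1.88; 5 matches). The flanking genes Bbs2 and Nup93 stood at 5.86 and 49.1 CPM in S200 against 4.74 and 32.5 CPM in NS.

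Other zinc genes lay on both sides. Mtf1 stood at 24.5 CPM in S200 and 24.3 CPM in NS (0.01, -0.22 to 0.24), and Slc30a1, the zinc exporter that MTF1 also drives, at 17.6 CPM in S200 and 9.61 CPM in NS (0.87, 0.57 to 1.17). The plasma membrane importer gene Slc39a4 stood at 20.2 CPM in S200 and 36.4 CPM in NS. Of 17 measured genes of the list, 4 were at least 1.5-fold higher and 5 lower (also when rescaled), 3 of the 5 being metallothioneins, and the median was 0.28, or 0.01 under median-of-ratios scaling.

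Several iron genes were higher, while both ferritin genes were below NS. Ftl1, ferritin light chain, which has near-identical copies that can take its reads, was 3.04-fold lower (157 CPM in S200 against 476 in NS), and Fth1, the heavy chain, stood at 994 CPM in S200 and 1348 CPM in NS (-0.44, -0.47 to -0.41). Hmox1, the heme-degrading enzyme, stood at 73.2 CPM in S200 and 91.2 CPM in NS. Tfrc, the transferrin receptor that brings iron in, stood at 335 CPM in S200 and 201 CPM in NS (0.73, 0.67 to 0.80), and Ireb2, the iron regulatory protein that represses ferritin translation when iron is low, at 100.1 CPM in S200 and 44.9 CPM in NS (1.16, 1.03 to 1.29). Pcbp2, an RNA-binding protein and iron chaperone, was 2.24-fold higher (858 CPM in S200 against 383 in NS), and Slc40a1, the iron exporter, stood at 6.29 CPM in S200 and 2.44 CPM in NS. Of 17 measured genes, 7 were at least 1.5-fold higher and 1 lower, median 0.49 (rescaled, 6 and 3).

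Genes of oxidative stress and of NRF2, the factor that drives antioxidant genes, mostly lay below the median gene. Of 27 measured genes of the list, 0 were at least 1.5-fold higher and 5 lower (median -0.26), 24 lay below the median of all genes, and under median-of-ratios scaling the counts were 0 and 11. Slc7a11, the cystine importer, stood at 3.80 CPM in S200 and 10.2 CPM in NS, Gclm, the regulatory subunit of glutathione synthesis, at 45.8 CPM in S200 and 107 CPM in NS, and Txnrd1, thioredoxin reductase, at 108 CPM in S200 and 229 CPM in NS. Nfe2l2, which encodes NRF2, stood at 60.3 CPM in S200 and 123 CPM in NS (-1.02, -1.16 to -0.89) and Keap1, which marks NRF2 for degradation, at 11.5 CPM in S200 and 24.8 CPM in NS (-1.11, -1.42 to -0.81), so that factor and inhibitor were lower together. Cbr3, a carbonyl reductase that is an NRF2 target, lies outside the list and was named for its ratio. That ratio was the lowest of all measured genes, at 3.69 CPM in S200 and 38.1 CPM in NS (-3.37, -3.91 to -2.88). Relative to genes of like length and level the list's median stood at -0.23.

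The general pluripotency factors lay on different sides of NS, and the naive factors Klf4 and Tbx3 were well above it. Sox2 stood at 630.2 CPM in S200 and 358 CPM in NS (0.81, 0.76 to 0.86) and its partner Pou5f1, which encodes Oct4, at 185 CPM in S200 and 248 CPM in NS (-0.42, -0.50 to -0.34). Nanog stood at 124 CPM in S200 and 123 CPM in NS, a log2 ratio of 0.01 that is -0.26 under median-of-ratios scaling. Of 20 measured naive genes, 4 were at least 1.5-fold higher and 2 lower (median 0.15, turning negative under median-of-ratios scaling; rescaled, 2 and 4), and of 16 core genes 4 and 3 (rescaled, 2 and 4). The naive factors Klf4 and Tbx3, both activated by LIF, stood at 344 and 279.7 CPM in S200 against 102 and 105 CPM in NS. Klf2, a naive factor that acts beside Klf4, was on the other side, at 142 CPM in S200 and 226 CPM in NS (-0.67, -0.76 to -0.59), and Esrrb stood at 73.8 CPM in S200 and 91.8 CPM in NS. Among core genes Sall4, a zinc finger factor, stood at 197 CPM in S200 and 81.8 CPM in NS (1.27, 1.17 to 1.36), and Utf1, L1td1 and Lin28a at 75.2, 265 and 24.8 CPM in S200 against 119.5, 431 and 38.7 CPM in NS.

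LIF signals through its receptor, JAK kinases and STAT3. Of 16 measured genes of the LIF and STAT3 list, 7 were at least 1.5-fold higher and 0 lower (median 0.46), and 4 and 1 under median-of-ratios scaling. Stat3 stood at 68.9 CPM in S200 and 43.5 CPM in NS (0.66, 0.51 to 0.81), and its feedback inhibitor Socs3 at 58.04 CPM in S200 and 36.5 CPM in NS (0.67, 0.51 to 0.83). Pramel6, a LIF-responsive gene of the naive state, stood at 7.49 CPM in S200 and 0.587 CPM in NS (3.67, 2.81 to 4.65, 13 UMIs in NS). Icam1 and Bcl3, both STAT3 targets, stood at 85.6 CPM in S200 against 43.8 in NS and 29.4 CPM in S200 against 15.1 in NS. The receptor subunit genes Lifr and Il6st stood at 22.6 CPM in S200 against 16.1 in NS and 27.1 CPM in S200 against 25.1 in NS, and Jak1 at 61.4 CPM in S200 against 66.02 in NS.

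Genes of the step that follows the naive state were mixed. Of 14 measured formative and primed genes, 5 were at least 1.5-fold higher and 4 lower (rescaled, 5 and 6). Lef1, a Wnt effector of the primed state, stood at 0.868 CPM in S200 and 3.70 CPM in NS with 8 UMIs in S200, and the zinc finger genes Zic2 and Zic5 at 2.50 and 6.62 CPM in S200 against 8.17 and 17.7 CPM in NS. The de novo DNA methyltransferase genes Dnmt3a and Dnmt3b were on the other side, at 36.8 and 89.1 CPM in S200 against 19.4 and 41.3 CPM in NS. Sox4 and Sox11 stood at 17.2 CPM in S200 against 6.81 in NS and 6.51 CPM in S200 against 2.53 in NS.

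Members of 1 signalling family could stand far apart. Lefty1, a secreted Nodal inhibitor and Nodal target, stood at 9.98 CPM in S200 and 69.8 CPM in NS, 6.99-fold lower (-2.81, -3.13 to -2.50), whereas Lefty2, its neighbour on chromosome 1 and similar enough to share reads, stood at 65.4 CPM in S200 and 69.95 CPM in NS (-0.10, -0.23 to 0.04). Nodal stood at 14.4 CPM in S200 and 21.3 CPM in NS (-0.56, -0.85 to -0.28) and the activin receptor gene Acvr1b at 16.6 CPM in S200 and 8.44 CPM in NS. Of 13 measured Nodal genes 2 were at least 1.5-fold higher and 1 lower (rescaled, 1 and 3). In the BMP pathway the Id genes, which are among its direct targets, were below NS. Id1, Id2, Id3 and Id4 stood at 9.55, 11.1, 9.98 and 3.25 CPM in S200 against 33.8, 31.6, 18.5 and 4.83 CPM in NS. Id4 had 30 UMIs in S200 (-0.57, -1.20 to 0.03). Bmp4 itself stood at 29.1 CPM in S200 against 28.7 in NS, and Smad6, the pathway's inhibitor, at 8.35 CPM in S200 against 3.84 in NS. Of 13 measured genes of the BMP and Id list, 2 were at least 1.5-fold higher and 3 lower (rescaled, 2 and 4). The median was 0.27, or 0.01 under median-of-ratios scaling. The 2 higher were Smad6 and Bambi (7.70 CPM in S200 against 3.97 in NS), and the 3 lower were Id1, Id2 and Id3.

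Wnt genes lay above the median gene. Of 19 measured, 8 were at least 1.5-fold higher and 1 (Lef1) lower, median 0.57, and 7 and 1 under median-of-ratios scaling. Fzd5 and Fzd7, receptors, stood at 24.4 and 12.8 CPM in S200 against 6.77 and 3.97 CPM in NS, and Wls, which escorts Wnt proteins out of the cell, at 12.04 CPM in S200 and 3.88 CPM in NS. Among the nuclear factors Tcf7l2 was 3.86-fold higher (51.1 CPM in S200 against 13.2 in NS), and Tcf7l1, the repressor that dominates in stem cells, 2.12-fold higher (124 CPM in S200 against 58.4 in NS). Ctnnb1, beta-catenin, stood at 220.4 CPM in S200 and 119 CPM in NS (0.89, 0.80 to 0.97), and the feedback target Axin2 at 15.7 CPM in S200 and 10.2 CPM in NS (0.63, 0.32 to 0.94).

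FGF and immediate early genes did not form a single pattern. Of 20 measured, 6 were at least 1.5-fold higher and 3 lower (rescaled, 6 and 5). Fos stood at 17.7 CPM in S200 and 4.33 CPM in NS and Ier3 at 101.2 CPM in S200 and 35.8 CPM in NS, while Atf3, another stress-inducible factor, stood at 3.69 CPM in S200 and 12.4 CPM in NS. Fgfr1, the receptor, was 2.49-fold higher (69.1 CPM in S200 against 27.8 in NS), and the ERK targets Etv4, Etv5 and Spry4 stood at 31.03, 174 and 29.8 CPM in S200 against 46.9, 249 and 43.5 CPM in NS. The ligand gene Fgf4 lay level, at 88.6 CPM in S200 against 90.4 in NS.

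Germline genes stood on both sides. Stra8 and Meioc, which act at entry into meiosis, stood at 191 and 71.3 CPM in S200 against 48.3 and 17.1 CPM in NS, and Dazl, Taf7l and Rec8 at 28.6, 26.7 and 49.4 CPM in S200 against 8.03, 8.80 and 20.3 CPM in NS. Sycp3, a core protein of the synaptonemal complex, was 3.83-fold lower (27.9 CPM in S200 against 107 in NS), and Prdm1 and Nanos3 stood at 5.64 and 2.39 CPM in S200 against 15.98 and 6.995 CPM in NS. In all, 7 of 17 measured genes were at least 1.5-fold higher and 5 lower, median 0.17 (-0.09 under median-of-ratios scaling; rescaled, 6 and 5).

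Keratin genes and part of the trophoblast and epithelial genes were lower. Of 13 measured trophoblast genes, 4 were at least 1.5-fold higher and 7 lower (rescaled, 4 and 9), with the lowest median of any list of 8 or more measured genes, -0.66, and -0.73 relative to genes of like length and level. Keratins Krt18, Krt19, Krt7 and Krt8 stood at 10.3, 43.3, 4.56 and 17.7 CPM in S200 against 30.7, 81.3, 8.35 and 27.98 CPM in NS, and the basal keratin Krt17 at 3.80 CPM in S200 and 38.6 CPM in NS (-3.35, -3.88 to -2.86). The X-linked homeobox genes Rhox6 and Rhox9 stood at 55.98 and 45.7 CPM in S200 against 126 and 89.1 CPM in NS. Trophoblast factors of the list stood on both sides. Hand1 stood at 60.4 CPM in S200 and 29.4 CPM in NS, Eomes at 21.2 CPM in S200 and 11.3 CPM in NS and Tfap2c at 86.1 CPM in S200 and 47.3 CPM in NS. Tead4 and Id2 were lower, at 6.94 and 11.1 CPM in S200 against 9.48 and 31.6 CPM in NS. The summed level of the 8 defining trophoblast markers was 181 CPM in S200 against 100.2 CPM in NS.

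Junction genes stood on both sides as well. The claudins Cldn3, Cldn4 and Cldn7 stood at 3.91, 8.14 and 104 CPM in S200 against 15.4, 20.1 and 190.3 CPM in NS, and the cadherins Cdh1 and Cdh3 at 129 and 29.6 CPM in S200 against 67.7 and 7.90 CPM in NS. Of 14 measured epithelial genes 3 were at least 1.5-fold higher and 5 lower (rescaled, 2 and 9). Basement membrane genes had a median of 0.49, and 0.23 relative to genes of like length and level. With CPM 10 of 23 were at least 1.5-fold higher and 1 lower, where 25.4% of all measured genes were higher. Rescaled, the counts were 4 and 2, where 14.5% of all measured genes were higher. The list was led by the laminin chain Lamc1 (68.5 CPM in S200 against 27.5 in NS) and the integrins Itga6 (138 CPM in S200 against 58.7 in NS) and Itga3 (27.1 CPM in S200 against 11.5 in NS). Fn1, fibronectin, stood at 283 CPM in S200 and 91.7 CPM in NS (1.62, 1.54 to 1.71).

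Annexins, S100 proteins and cytoskeletal genes included both ends of the range. Anxa2, a calcium-dependent membrane-binding protein, was 3.19-fold lower (46.2 CPM in S200 against 147 in NS), and its partner S100a10 stood at 62.5 CPM in S200 and 121 CPM in NS (-0.95, -1.08 to -0.82). S100a6 was on the other side, at 791 CPM in S200 and 265 CPM in NS, 2.99-fold higher. Ahnak, a large scaffold that binds that Anxa2 complex, stood at 35.7 CPM in S200 and 111 CPM in NS, and Ahnak2 at 2.06 CPM in S200 and 18.5 CPM in NS. Among 20 measured mesenchymal and cytoskeletal genes 2 were at least 1.5-fold higher and 5 lower (rescaled, 2 and 10). Pfn1, profilin, stood at 844 CPM in S200 and 383 CPM in NS (1.14, 1.10 to 1.18) and Rhoc, a small GTPase, at 19.09 CPM in S200 and 55.5 CPM in NS (-1.54, -1.77 to -1.31), while Actb stood at 1859.9 CPM in S200 and 1793 CPM in NS.

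**Figure D3:**
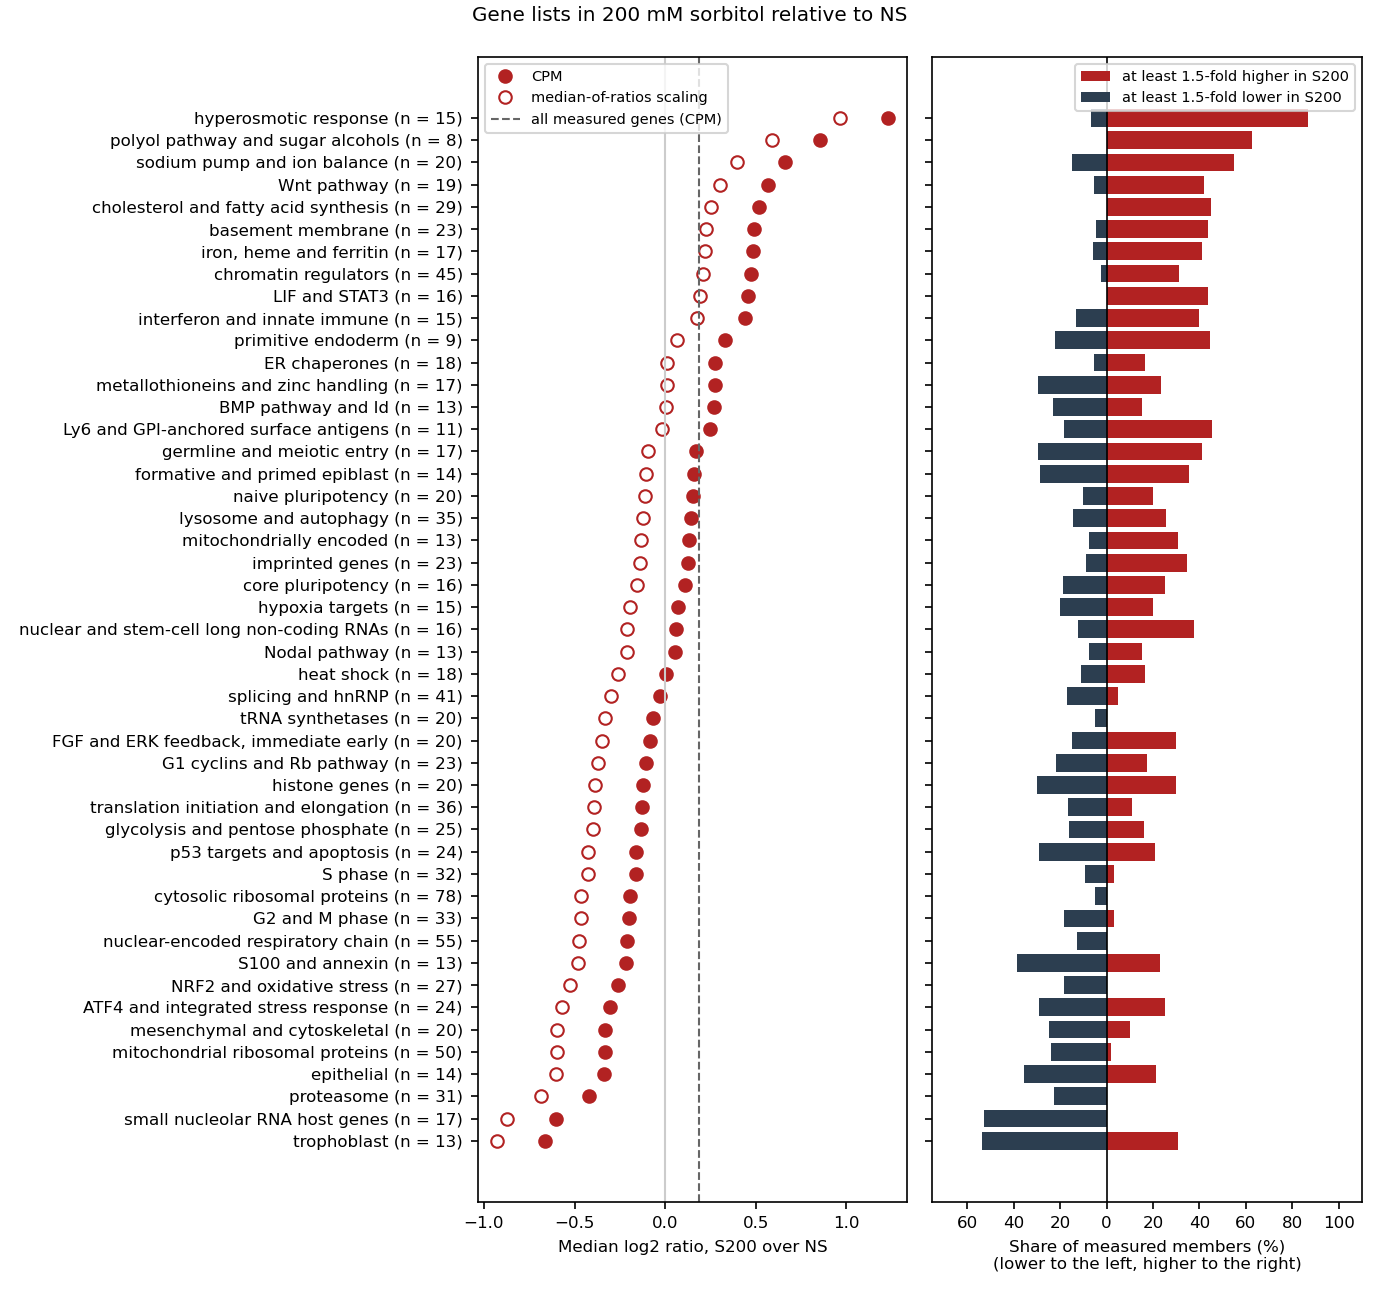
Gene lists with at least 8 measured members. Left, median log2 ratio of S200 over NS with CPM (filled) and with median-of-ratios scaling (open), with the median of all measured genes, 0.19, as a dashed line. Right, share of members (%) at least 1.5-fold higher or lower in S200. The hyperosmotic list has the highest median, 1.23, and the trophoblast list the lowest, -0.66.

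Genes of lipid synthesis were higher or close to NS, and none was 1.5-fold lower. Of 29 measured genes of cholesterol and fatty acid synthesis, 13 were at least 1.5-fold higher and 0 lower, median 0.52, and 9 and 0 under median-of-ratios scaling. Hsd17b7, a sterol reductase, stood at 21.05 CPM in S200 and 8.53 CPM in NS, and Msmo1, a late step of cholesterol synthesis, at 126 CPM in S200 and 62.4 CPM in NS. The fatty acid elongase gene Elovl6 stood at 197 CPM in S200 and 99.4 CPM in NS (0.99, 0.90 to 1.08). Srebf2, which encodes the factor that drives the pathway, stood at 188 CPM in S200 and 194 CPM in NS. Relative to genes of like length and level the list stood 0.27 higher.

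Glycolytic genes stood on both sides. Gapdh and Ldhb stood at 1642 and 231 CPM in S200 against 3559 and 493 CPM in NS (log2 ratios -1.12 and -1.10), whereas Pfkp, a phosphofructokinase, stood at 361 CPM in S200 and 161 CPM in NS and Slc2a3, a glucose transporter, at 2338 CPM in S200 and 1173 CPM in NS. Of 25 measured genes 4 were at least 1.5-fold higher and 4 lower (rescaled, 2 and 8). Among hypoxia targets 3 of 15 were higher and 3 lower (rescaled, 2 and 4), Ndufa4l2 and Higd1a standing at 54.1 and 410.3 CPM in S200 against 138 and 803 CPM in NS. Of 55 nuclear genes of the respiratory chain 0 were at least 1.5-fold higher and 7 lower, a share near the 10.3% of all measured genes, and 0 and 22 rescaled (median -0.21, and -0.10 relative to genes of like length and level). Of the 13 mitochondrially encoded genes 4 were at least 1.5-fold higher and 1 lower (rescaled, 2 and 2). Their median of 0.13 lay below that of all genes and turns to -0.13 under median-of-ratios scaling. All 13 are in the shortest class of transcript length, and relative to genes of like length and level their median stood at 0.33. Among them the cytochrome oxidase genes mt-Co1, mt-Co2 and mt-Co3 stood at 15448, 10711 and 11372 CPM in S200 against 9264, 6755 and 5975 CPM in NS. The lowest of the 13 was mt-Atp8, at 203 CPM in S200 against 408 in NS. The higher mitochondrial share of UMIs in S200 is the sum of these same 13 genes and not a separate measure, and its cause was not tested.

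Genes of protein synthesis and breakdown lay below the median gene, and most are short. Of 78 cytosolic ribosomal protein genes 0 were at least 1.5-fold higher and 4 lower, and 0 and 20 rescaled (median -0.20, and -0.03 relative to genes of like length and level). Rpl38 stood at 7132 CPM in S200 and 11466 CPM in NS, one of the 4. Of 31 proteasome genes 0 were higher and 7 lower (median -0.42; 0 and 20 under median-of-ratios scaling), 29 lay below the median of all genes, and relative to like genes the median stood at -0.24. Psmc2, an ATPase of the cap, stood at 50.8 CPM in S200 and 88.99 CPM in NS, and Psma7, a ring subunit, at 378 CPM in S200 and 622 CPM in NS. Mitochondrial ribosomal protein genes stood at -0.33 in the median (-0.21 relative to like genes), with 1 of 50 higher and 12 lower (rescaled, 1 and 25). The higher gene was Mrps6 (136 CPM in S200 against 69.7 in NS), the gene that overlaps Slc5a3. Of 36 translation factors 4 were higher and 6 lower (rescaled, 2 and 15), Eif4ebp2 standing at 226 CPM in S200 and 110.4 CPM in NS and Eif4ebp1, its relative, at 503 CPM in S200 and 834 CPM in NS.

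Host genes of small nucleolar RNAs were lower, also relative to genes of like length and level. Of 17 measured, 0 were at least 1.5-fold higher and 9 lower, and 0 and 10 rescaled (median -0.60, and -0.56 relative to genes of like length and level). Gas5 stood at 141 CPM in S200 and 443 CPM in NS (3.14-fold lower), Snhg9 at 26.8 CPM in S200 and 75.8 CPM in NS, Snhg12 at 41.8 CPM in S200 and 92.4 CPM in NS and Zfas1 at 49.03 CPM in S200 and 94.5 CPM in NS. Their spliced RNAs are known to be degraded in translation-dependent decay. Rmrp, the RNA of the RNase MRP complex, stood at 1.95 CPM in S200 and 13.7 CPM in NS. Other long non-coding RNAs stood on both sides, with Neat1, the scaffold of paraspeckles, at 376 CPM in S200 and 181 CPM in NS, Lncenc1 at 121 CPM in S200 and 47.7 CPM in NS and Platr10 at 14.97 CPM in S200 and 59.9 CPM in NS. Xist, at 7.92 CPM in S200 and 1.67 CPM in NS with 37 UMIs in NS, overlaps Tsix, and strand use is not known, so its level is uncertain.

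In the other stress pathways genes stood on both sides. Of 24 measured genes of ATF4 and the integrated stress response, 6 were at least 1.5-fold higher and 7 lower (median -0.30), and 2 and 12 rescaled. Ddit3, the CHOP factor, stood at 118 CPM in S200 and 57.2 CPM in NS (1.04, 0.93 to 1.16) and Psat1, of serine synthesis, at 618 CPM in S200 and 319 CPM in NS, but Atf4 at 125 CPM in S200 and 179 CPM in NS, Nupr1 at 124 CPM in S200 and 296 CPM in NS, Chac1 at 29.3 CPM in S200 and 69.9 CPM in NS and Trib3 at 34.7 CPM in S200 and 66.5 CPM in NS. Of 18 chaperones of the endoplasmic reticulum 3 were higher and 1 lower (0 and 1 under median-of-ratios scaling), with Hspa5, the lead chaperone, at 374 CPM in S200 and 342 CPM in NS, whose direction turns under that scaling. Of 18 heat shock genes 3 were higher and 2 lower (rescaled, 2 and 4), Dnajb4 standing at 15.5 CPM in S200 and 4.83 CPM in NS and Dnajb1 at 32.3 CPM in S200 and 55.5 CPM in NS. Of 20 tRNA synthetase genes 0 were higher and 1 lower (rescaled, 0 and 2).

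Among 24 measured p53 targets 5 were at least 1.5-fold higher and 7 lower (rescaled, 3 and 9). Phlda3, an inhibitor of Akt signalling, was 3.67-fold lower (28.1 CPM in S200 against 103 in NS), while the BH3-only gene Pmaip1 stood at 23.5 CPM in S200 and 8.85 CPM in NS and Casp9, the initiator caspase, at 16.2 CPM in S200 and 6.41 CPM in NS. Cdkn1a, the p21 inhibitor, stood at 64.98 CPM in S200 and 83.2 CPM in NS (-0.36, -0.49 to -0.22) and Mdm2 at 128 CPM in S200 and 154 CPM in NS. Of 35 lysosome and autophagy genes 9 were higher, a share near the 25.4% of all measured genes, and 5 lower (rescaled, 4 and 5). The autophagy receptor Sqstm1 and Map1lc3b stood at 180.1 and 203 CPM in S200 against 367 and 363 CPM in NS, and the lysosomal genes Lgmn and Npc1 at 56.6 and 45.6 CPM in S200 against 22.7 and 18.6 CPM in NS.

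Cell cycle genes lay a little below the median gene, with a few far below. Of 33 measured genes of G2 and M phase 1 was at least 1.5-fold higher and 6 lower, and 0 and 14 rescaled (median -0.20, and -0.31 relative to genes of like length and level). Of 32 S phase genes 1 was higher and 3 lower (rescaled, 0 and 8). Top2a stood at 662 CPM in S200 and 959 CPM in NS, Ccnb2 at 71.3 CPM in S200 and 125 CPM in NS, Hmgb2 at 468 CPM in S200 and 890.1 CPM in NS and G2e3 at 60.1 CPM in S200 and 137 CPM in NS. Of the G1 cyclins, Ccnd1 stood at 7.16 CPM in S200 and 29.1 CPM in NS, Ccnd2 at 12.5 CPM in S200 and 30.2 CPM in NS and Ccne2 at 21.7 CPM in S200 and 60.1 CPM in NS. Ccnd3 lay near the median gene, at 200.1 CPM in S200 and 163 CPM in NS (0.30, 0.22 to 0.38, and 0.03 under median-of-ratios scaling). Of 23 measured genes of the G1 cyclin and Rb list, 4 were at least 1.5-fold higher and 5 lower (median -0.11; rescaled, 3 and 10). E2f3, a factor that drives entry into S phase, stood at 33.7 CPM in S200 and 75.6 CPM in NS. Rb1, the retinoblastoma repressor, stood at 35.6 CPM in S200 and 15.98 CPM in NS (1.16, 0.93 to 1.38). The replication genes Pcna and Mcm2 stood at 130.0 CPM in S200 against 115 in NS and 71.8 CPM in S200 against 60.3 in NS, log2 ratios of 0.18 and 0.25 that turn negative under median-of-ratios scaling.

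Histone genes stood on both sides, with the caution that near-identical copies share reads. The linker histone genes Hist1h1c and H1f0 stood at 116 and 57.5 CPM in S200 against 18.9 and 24.2 CPM in NS, whereas Hist1h1b and Hist1h1a stood at 63.03 and 9.004 CPM in S200 against 200.1 and 19.4 CPM in NS. Of the core genes Hist1h2bc stood at 50.9 CPM in S200 and 14.8 CPM in NS and Hist1h2ae at 23.8 CPM in S200 and 87.1 CPM in NS. In all 6 of 20 were at least 1.5-fold higher and 6 lower (rescaled, 4 and 8; median -0.12, and 0.06 relative to genes of like length and level). Of 45 chromatin regulators 14 were higher and 1 lower, where 25.4% of all measured genes were higher. Rescaled, the counts were 7 and 2, a share higher that is near the 14.5% of all measured genes. The median was 0.48, and 0.22 relative to genes of like length and level. Tet3, Chd4, Hdac1 and Jarid2 stood at 30.8, 585, 129.8 and 519 CPM in S200 against 16.02, 309, 70.3 and 285 CPM in NS. Of 41 splicing genes 2 were higher and 7 lower (rescaled, 2 and 11), the lower ones including Srsf5, Srsf3 and Rbm39 (84.5 CPM in S200 against 182 in NS, 222 CPM in S200 against 388 in NS and 315 CPM in S200 against 579.9 in NS) and the higher being the kinase gene Clk1 (106 CPM in S200 against 50.6 in NS) and Hnrnph1 (222 CPM in S200 against 116 in NS).

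Interferon-related genes were mixed. Of 15 measured interferon and innate immune genes 6 were at least 1.5-fold higher and 2 lower (rescaled, 4 and 4), with Stat2 at 35.4 CPM in S200 and 13.9 CPM in NS, H2-K1 at 85.9 CPM in S200 and 46.4 CPM in NS and Irf1 at 12.6 CPM in S200 and 31.1 CPM in NS. The 13 cleavage-stage-like markers found, which mark rare stem cells resembling the early embryo, summed to 48.8 CPM in S200 against 20.5 CPM in NS, with Zscan4c and Zscan4d at 3.91 and 4.88 CPM in S200 against 1.40 and 1.94 CPM in NS, and 1 of them at 0 in S200. At 500 UMIs a barcode, 24 S200 barcodes (0.24%) and 8 NS barcodes (0.08%) held 2 or more of their UMIs. These genes have near-identical copies, and their counts are uncertain.

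Most genes stood at much the same level at 200 mM as at the higher doses. In S200, 253 measured genes (2.48%) were at least 1.5-fold higher than in S250 and 326 (3.19%) lower, and 335 (3.28%) and 489 (4.78%) relative to S300. At 2-fold on the same side of both doses stood 9 genes higher (0.088%) and 12 lower (0.117%). The 8 genes of each side that lay farthest from both doses, among those with at least 50 CPM at any dose, include some short of 2-fold. Txnip, a thioredoxin-binding protein that curbs glucose uptake, stood at 33.8 CPM in NS and 97.3, 40.5 and 43.4 CPM at 200, 250 and 300 mM. Ero1l, the oxidase that forms disulfides in the endoplasmic reticulum, stood at 281 CPM in NS and 631, 310.3 and 339.6 CPM at 200, 250 and 300 mM, and Ddit3 at 57.2 CPM in NS and 118, 72.7 and 61.3 CPM at 200, 250 and 300 mM. Each of these was highest at 200 mM and lay closer to NS at the higher doses.

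Insig1 and Dhcr7, a sterol sensor and a late enzyme of cholesterol synthesis, had the same shape, with Insig1 at 41.9 CPM in NS and 69.8, 34.6 and 38.5 CPM at 200, 250 and 300 mM and Dhcr7 at 33.5 CPM in NS and 60.4, 37.6 and 38.1 CPM at 200, 250 and 300 mM. The genes that were low at 200 mM relative to the higher doses included Otx2, a formative factor, at 21.5 CPM in NS and 24.5, 49.9 and 62.2 CPM at 200, 250 and 300 mM, and Eras, a Ras form of stem cells, at 20.5 CPM in NS and 23.6, 42.8 and 52.3 CPM at 200, 250 and 300 mM. Both lay near NS at 200 mM. Tsix, the antisense partner of Xist, stood at 75.4 CPM in NS and 68.5, 137 and 154 CPM at 200, 250 and 300 mM. Gdf3, a growth factor of the Nodal type, stood at 55.7 CPM in NS and 32.7, 68.3 and 68.3 CPM at 200, 250 and 300 mM, and Ppp1r10, a nuclear regulator of a protein phosphatase, at 152 CPM in NS and 50.1, 100.3 and 111 CPM at 200, 250 and 300 mM, so that both were lowest at 200 mM.

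**Figure D4:**
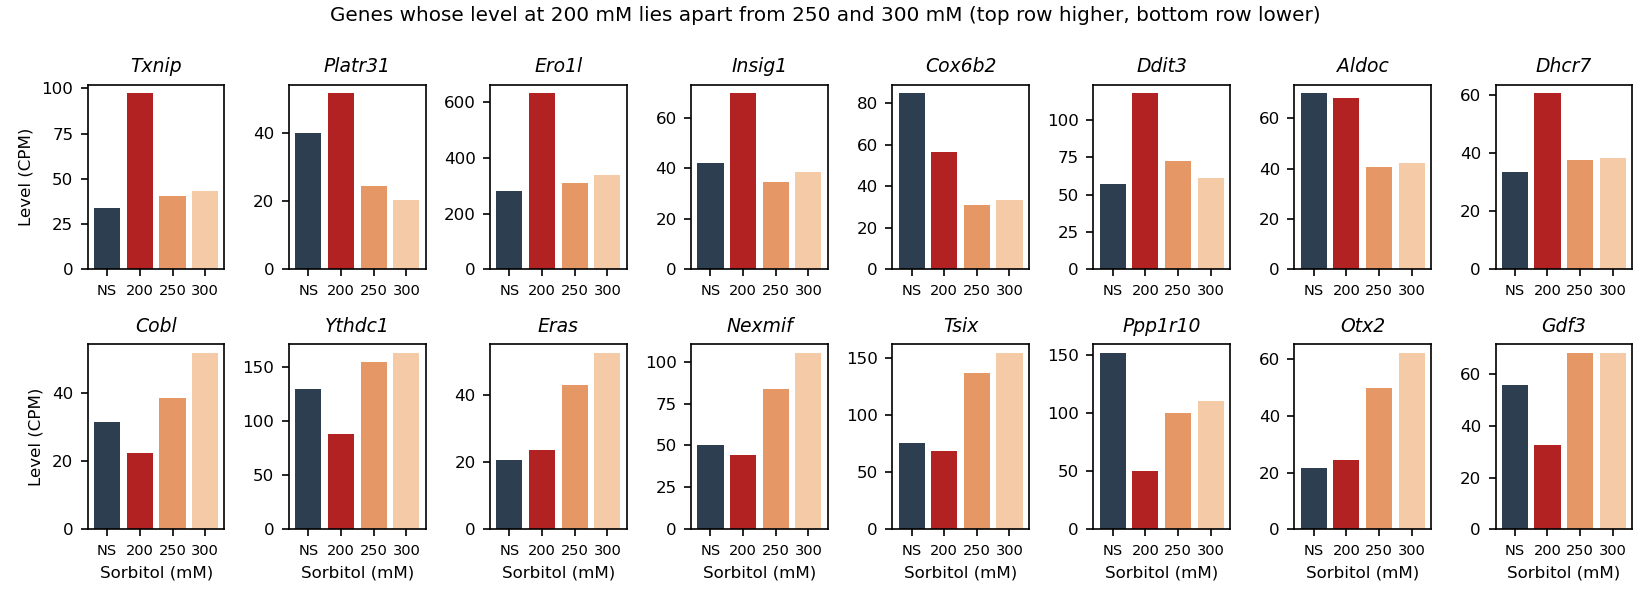
Levels (CPM, linear axes from 0, each panel on its own scale) in NS and at 200, 250 and 300 mM sorbitol of the 8 genes highest and the 8 lowest at 200 mM relative to both higher doses. Each bar is 1 library, and Txnip, at 97.3 CPM at 200 mM, is above the other 3 libraries, which lie between 33.8 and 43.4 CPM.

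For nearly every gene the variance over mean across thinned S200 barcodes lay close to the value that counting alone gives. After thinning to 500 UMIs, which every kept barcode reached, the median barcode held 364 genes in S200 and 359 in NS. Unthinned, it held 582 in S200 and 1102 in NS. The median variance over mean of a gene was 1.002 in S200 and 1.003 in NS, where independent counting gives 1, and it passed 1.2 for 3 of 3774 genes in S200 and 13 of 3425 in NS. The genes of G2 and M phase, which rise in dividing cells, had a highest variance over mean of 1.04 in S200 and 1.05 in NS over 30 genes. At the low means left by thinning to 500 UMIs, the measure can stay near 1 where a gene's level differs between barcodes. It therefore does not show that the barcodes were alike. Whether each barcode is 1 cell is not given in the sources used here.

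Malat1 and H19 were the exceptions above 1.5 in S200. H19 had a variance over mean of 2.40 in S200 and 1.37 in NS. For an uneven gene this measure also grows with the mean, which was 0.468 UMIs in S200 and 0.0679 in NS. These values therefore do not show in which library H19 was more uneven. H19 had a UMI in 26.2% of S200 barcodes against 5.65% of NS barcodes (unthinned, 37.1% in S200 and 18.1% in NS). In S200, 7368 thinned barcodes held no H19 UMI, 1590 held 1, 913 held 2 to 4 and 114 held 5 or more, up to 14, whereas in NS 9435 held none and 1 held as many as 5. Malat1 had a variance over mean of 3.25 in S200 and 2.52 in NS, with means of 11.4 UMIs in S200 and 7.02 in NS. The other gene past 1.2 in S200 was the gene model Gm21761, at 1.36 in S200 and 1.34 in NS. Platr31, a stem cell long non-coding RNA, had 1.17 in S200 and 1.87 in NS. Fxyd2, of the osmotic list, had a UMI in 8.36% of thinned S200 barcodes and 1.53% of NS barcodes. For Ly6a the shares were 6.29% in S200 and 0.43% in NS. Their variance over mean was 1.01 and 1.05 in S200. These UMIs were not held by only a few barcodes, but their spread over all barcodes cannot be read at such low means. No cell type that lacks these genes was at hand to measure UMIs from free RNA.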

How the data were processed

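The deposited files hold raw UMI counts per gene and barcode, which the authors produced in Cell Ranger (6.0.1, per the file headers), for 1 library of each of 5 conditions. The submitters' processing notes name mm10, Seurat 4.1.1 and R 4.1.2 without roles. How reads were aligned, annotated and read by strand, and how 10000 barcodes per library were picked, is not given in the sources used here, so overlapping, antisense and near-identical genes are uncertain. The labels' protocol names Trizol and a Lexogen 3' kit, whereas the matrices list droplet barcodes, and which applies was not settled.

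Barcodes with at least 500 genes were kept, without a doublet caller, and their counts summed and scaled to CPM (Python 3.11.15, numpy 2.4.6, scipy 1.17.1, pandas 2.3.3, matplotlib 3.10.9). Ratios have exact conditional binomial 95% intervals and levels exact Poisson ones, for counting error only. Counts under 3 UMIs were set to 3. The intervals were checked on simulated data. Named genes are the 15 highest and 15 lowest ratios from 50 CPM, the 8 of each from 10 to 50 CPM, 4 members per list, 8 of each apart at 200 mM, the 10 most uneven, and Zfp42, Nanog, Pou5f1 and Sox2. A few genes that the rule names are not reported here. Others were chosen after their values were seen, as were the neighbours of H19, Ly6a and Mt1 and the comparison with genes of like length and level. The members and the 51 lists (10 symbols not found) were chosen with earlier results of these data known. Coordinates are from GENCODE M21 (mm10), 1-based. Alternatives changed scaling, barcode and level filters, depth and fold.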

Additional observations from a re-analysis of the deposited data

How the results depend on the processing

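No paired analysis was possible because each condition has 1 library and no replicate number, and no replicate could be left out. With CPM, 1013 genes were at least 2-fold higher and 296 lower; with median-of-ratios scaling 535 and 663. A mean of at least 20 CPM left 375 and 135, other folds gave 2593 and 1055 (1.5-fold) and 79 and 18 (4-fold), and barcodes with at least 1000 genes (22 in S200, 9255 in NS) gave 148 lower. There the log2 ratios of Psmb4, Cdc20, Mcm7 and Trib3 turned to 0.50, 0.78, 0.28 and 0.083 and the median of the cleavage-stage-like list to -0.63. At a mean of at least 20 CPM that median was -0.30 and the neuroectoderm one -0.37, both over fewer genes. Barcodes with at least 1000 genes held 42227 UMIs in S200 and 20703231 in NS, so the turned ratios there carry wide counting error. The cause of the turns among barcodes with at least 1000 genes was not tested. With all barcodes the 2-fold counts were 1016 and 296, without the 5% of barcodes with most UMIs 1017 and 299, thinned 1154 and 316, without barcodes over 10% mitochondrial UMIs 1014 and 296, and without mitochondrial and ribosomal protein genes in the total 939 and 321. The depth of S200 limits genes near 5 CPM to about 46 UMIs.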
